A study of Mus musculus with 8 samples.

Results

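The comparison is between muscle stem cells with high and with low Myf5 reporter signal from female mice. It takes 4 of the 8 libraries of the series, namely the 2 female Myf5High and the 2 female Myf5Low libraries, paired by replicate number. The 4 libraries of the male pools have the same layout. They enter for the choice of genes tested, the scaling, the spread and a comparison of the sexes. All mice, in every group, were of the C57BL/6NTac strain and carried a knock-in of T2A-ZsGreen at Pax7 and of T2A-E2Crimson at Myf5, and no treatment is given in the labels. Cells were sorted by flow cytometry from hindlimb muscle as Pax7 reporter positive, and Myf5High and Myf5Low are the opposite ends of the E2Crimson range among them, so cells between the ends were not profiled. Each library came from polyadenylated RNA of a pool of 4 mice. The age of the mice is not given in the labels. The pool labels F1 and F2 appear with a P and an N suffix for Myf5High and Myf5Low, and libraries with the same pool number were treated as pairs, which the labels do not state outright.

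Muscle stem cells lie between the muscle fibre and its basal lamina and are marked by the transcription factor Pax7. Myf5 and Myod1 are transcription factors that commit cells to the muscle lineage, and Myog (myogenin) switches committed cells to differentiation, in which they leave the cell cycle, fuse and build sarcomeres. These factors bind DNA at E-boxes, short motifs spelled CANNTG. Bulk RNA from a sorted fraction is an average, so fewer cells expressing a gene and less RNA of that gene per cell cannot be told apart in any result below.

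Gene counts ran from 3140361 to 3867444 in the female libraries, and 3 counts, used as the detection floor, corresponded to 0.704 to 0.969 normalised CPM. Normalised CPM are counts scaled to a common library total by the TMM method. Replicate libraries correlated at a Pearson r of 0.941 (Myf5High) and 0.919 (Myf5Low) over log2 CPM of 11730 genes, and libraries of different fractions at 0.901 to 0.927. The 2 libraries of a fraction were not copies of each other, with a chi-square over its degrees of freedom of 8.52 in Myf5High and 19.9 in Myf5Low. A single transcript, Gm42418, took 20.1% to 26.2% of the gene counts. Mitochondrial genes took 1.07% and 0.976% in Myf5High and 1.31% and 2.53% in Myf5Low. The Myf5Low library of pool 2 had the highest mitochondrial share of the 4.

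The sort could be checked on 2 genes. Myf5 (chromosome 10, 107482908 to 107486134 on GRCm38, GENCODE M21) was at 128 CPM in Myf5High pool 1 and 116 CPM in pool 2, against 25.0 and 49.8 CPM in Myf5Low. The groups did not overlap, and Myf5High exceeded Myf5Low by 1.77 ± 0.36 on the log2 scale (SE; edgeR adjusted p = 0.0409). Without the pairing of pools the same difference had an adjusted p of 0.0649 in edgeR. Myf5 was also not called by glmTreat or in any fit that left out a female library, and it was called in 11 of the 21 settings run, with a highest adjusted p of 1. Within pools, Myf5 RNA was 5.14-fold higher in Myf5High in pool 1 and 2.32-fold higher in pool 2. Pax7, on which both fractions were gated as positive, was at 1439 and 1496 CPM in Myf5High and at 1208 and 1378 CPM in Myf5Low. The log2 difference for Pax7 was 0.18 ± 0.27 (SE; edgeR adjusted p = 0.985), which is within its error.

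Between the female fractions, 33 of 11730 genes passed an edgeR quasi-likelihood test at a Benjamini-Hochberg adjusted p under 0.05, which is 0.281% of the genes tested, and these are described as called. Of them 19 were higher in Myf5High (0.162%) and 14 were lower (0.119%). All 33 had the same direction in both pools and groups that did not overlap, a separation that 39% of all genes tested also showed. An unadjusted p under 0.05 was reached by 749 genes. The median log2 difference over all genes was 0.002, and 5877 genes, 50.1%, lay above 0. The genes called lower in Myf5High included Myog, Mymk and Cdkn1c, which act in differentiation and cell cycle exit. Those called higher were led by Grik3, Draxin and Pcolce2 in fold and by Ankrd1, Erfe and Trib1 in level. Of the 33, 28 lost their call in at least 1 of the fits that left out a female library. With pools paired, such a fit takes the female difference from the other pool alone. The fit without a pool's Myf5High library and the fit without its Myf5Low library are therefore not separate checks. By annotation 32 of the 33 are protein-coding and 0 lie on chromosome X.

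**Figure D1:**
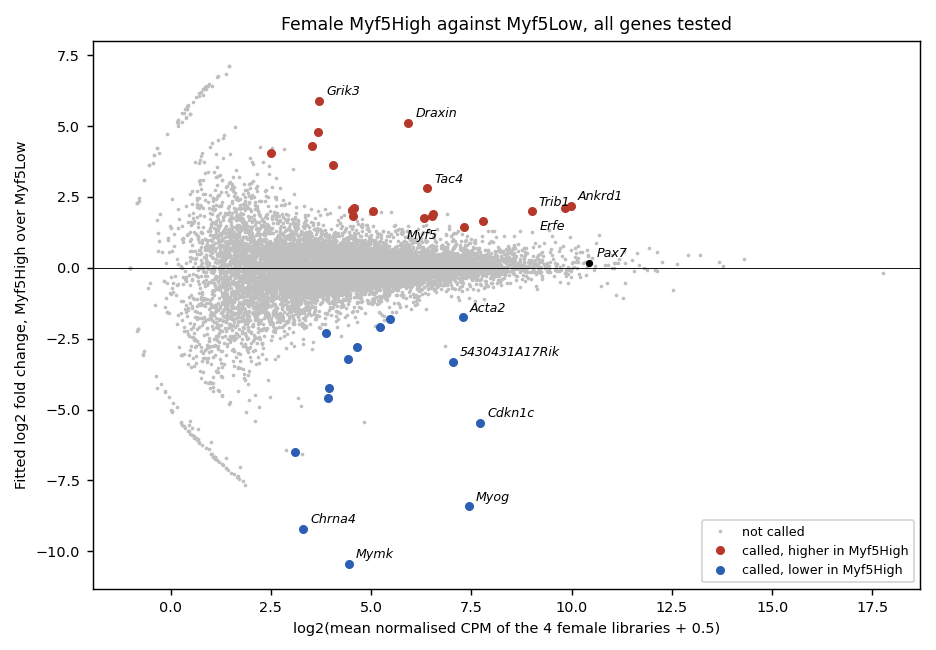
Fitted log2 fold change of Myf5High over Myf5Low in female pools against mean level (log2 of the mean normalised CPM of the 4 libraries plus a small constant) for all 11730 genes tested. The 33 called genes are coloured by direction; among them Myog, Mymk and Chrna4 lie lowest and Grik3 and Draxin highest, and Pax7, which is not called, lies near 0.

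Myog, the transcription factor of terminal differentiation (chromosome 1, 134289989 to 134292548), gave the clearest separation. Its level was 0.646 and 1.27 normalised CPM in Myf5High pools 1 and 2, at or near the detection floor, and 154.9 and 531.3 CPM in Myf5Low. Both Myf5Low libraries stood far above both Myf5High libraries, with that of pool 2 the highest. The Myf5High levels rest on 2 and 5 counts, so the ratio of Myf5Low to Myf5High was 240 in pool 1, with a 95% counting interval of 66.1 to 1986, and 418 in pool 2, with an interval of 179 to 1288 (log2 fold change -8.42 ± 0.53, SE; edgeR adjusted p = 4.28e-08). Mymk encodes myomaker, the membrane protein required for myoblasts to fuse. It had 0 counts in both Myf5High libraries and was at 17.6 and 67.6 CPM in Myf5Low, so that it was at least 49.2-fold lower in Myf5High, with the floor of 3 counts taken per library (edgeR adjusted p = 0.000281). Against the Myf5Low library of pool 1 alone, without that of pool 2, the bound is 20.3-fold. Mymk was not called by DESeq2, nor by edgeR without the Myf5Low library of pool 2, and its adjusted p reached 0.604 over the settings run. Its small partner in fusion, Mymx, also had 0 counts in both Myf5High libraries and was at 0.274 and 3.52 CPM in Myf5Low, and it was not called (edgeR adjusted p = 0.935).

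Among the other myogenic regulators, Myf5 was called higher, as given above, and Myod1 was not called. Myod1, the second commitment factor, was at 73.6 and 65.6 CPM in Myf5High and at 87.8 and 139.9 CPM in Myf5Low. These groups did not overlap, with Myf5High the lower as for Myog, but the log2 difference of -0.68 ± 0.34 (SE) was not called (edgeR adjusted p = 0.814). Myf6, the factor of mature fibres, stayed under the filter on low counts with at most 1.65 CPM in any female library. Of the 10 regulators in the list of Pax7 and related factors, which act upstream of the myogenic factors, 0 were called and the median log2 difference was 0.04. The fusion list had 14 of 20 members tested, with Mymk called lower, 0 called higher and a median of 0.18. The medians of this list within pools, as log2(CPM + 1), had the opposite sign, at -0.30 in pool 1 and -0.38 in pool 2. The cadherin Cdh15 was at 428 and 422 CPM in Myf5High against 310.4 and 301.6 CPM in Myf5Low, a log2 difference of 0.47 ± 0.28 (SE) that was not called. The most abundant fusion genes, Cdh15 and Itgb1, had positive differences, and neither passed the test.

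Cdkn1c, a cyclin-dependent kinase inhibitor expressed from the maternal allele (chromosome 7, 143458339 to 143461050), was at 9.36 and 7.88 normalised CPM in Myf5High and at 238.9 and 586.9 CPM in Myf5Low. The groups were far apart, again with Myf5Low pool 2 the highest library. Cdkn1c was 25.5-fold higher in Myf5Low in pool 1 and 74.5-fold in pool 2 (log2 fold change -5.46 ± 0.42, SE; edgeR adjusted p = 7.18e-07). Among the 6 tested inhibitors of cyclin-dependent kinases only Cdkn1c was called in this fit, and their median log2 difference was -0.29. Cdkn2d went the other way in level, at 134 and 121 CPM in Myf5High and 58.4 and 63.6 CPM in Myf5Low, but was not called (log2 1.06 ± 0.34, SE; edgeR adjusted p = 0.308). Cdkn1a was at 55.2 and 64.3 CPM in Myf5High and 60.1 and 125.8 CPM in Myf5Low, with overlapping groups.

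The cell cycle and DNA replication list had 33 members tested, of which 0 were called, 22 had a difference below 0 and the median was -0.26. An unadjusted p under 0.05 was reached by 7 members with lower and 1 with higher values in Myf5High, against 2.90% and 3.49% of all genes. The groups did not overlap in 11 members with Myf5High lower and in 3 with Myf5High higher, against 19.5% and 19.6% of all genes. Mki67, a proliferation marker, was at 13.2 and 35.8 CPM in Myf5High and at 51.3 and 48.8 CPM in Myf5Low (edgeR adjusted p = 0.68). Its Myf5High libraries lay below both Myf5Low libraries but differed widely from each other. Ccnd1 (cyclin D1) was at 384 and 581 CPM in Myf5High and at 236 and 310 CPM in Myf5Low, with no overlap and no call (edgeR adjusted p = 0.381).

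The lncRNA 5430431A17Rik (chromosome 7, 44473538 to 44486138) was the called gene with no protein product. It was at 23.6 and 23.9 CPM in Myf5High and at 274 and 202.5 CPM in Myf5Low. Replicates were close within each fraction, and Myf5High was lower in both pools (log2 -3.31 ± 0.35, SE; edgeR adjusted p = 4.41e-05).

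Among genes used in contraction and excitation, Mylk4, Stac3 and Atp2a1 were called lower in Myf5High, of which Mylk4 belongs to the sarcomere and contraction list. Mylk4, a myosin light chain kinase, was at 1.61 and 0.763 CPM in Myf5High and at 25.8 and 30.7 CPM in Myf5Low (log2 -4.58 ± 0.75, SE; edgeR adjusted p = 0.00644). The Myf5High levels of Mylk4 rest on 5 and 3 counts. It was called in 14 of 20 settings, lost only without a female library, and its difference ran from -5.30 to -3.97. Stac3, which couples membrane excitation to calcium release, was at 3.55 and 6.10 CPM against 23.0 and 24.4 CPM (log2 -2.31 ± 0.46, SE; edgeR adjusted p = 0.0363). Atp2a1, the calcium pump of the sarcoplasmic reticulum of fast fibres, was at 22.3 and 16.3 CPM against 77.1 and 58.7 CPM (log2 -1.82 ± 0.35, SE; edgeR adjusted p = 0.0289). Stac3 and Atp2a1 were called in 11 and 12 of the 21 settings, and neither was called by glmTreat or in any fit without a female library. All 3 had both Myf5High libraries below both Myf5Low libraries, and Atp2a1 overlaps Rabep2 on the other strand. Of the 27 tested genes in the sarcomere and contraction list, Mylk4 was called lower and 0 were called higher. In that list 19 members had a difference below 0 and the median was -0.61, while the median in males was 0.18. Both Myf5High libraries lay below both Myf5Low libraries in 14 members and above them in 2, where 19.5% and 19.6% of all genes did so, and 9 members reached an unadjusted p under 0.05 with lower and 2 with higher values in Myf5High.

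The sarcomere genes that were not called included Ttn, Actc1 and Tnnt2, with large differences and wide errors. Ttn and Actc1 were called in 11 and Tnnt2 in 9 of the 21 settings, among them the fits of the female libraries alone. Ttn (titin) was at 42.6 and 19.3 CPM in Myf5High and at 196.4 and 200.2 CPM in Myf5Low (log2 -2.77 ± 0.75, SE; edgeR adjusted p = 0.177). Actc1, the cardiac actin that embryonic and differentiating muscle also uses, was at 0.646 and 1.78 CPM against 22.5 and 87.1 CPM (log2 -5.44 ± 1.53, SE; edgeR adjusted p = 0.211). Tnnt2, a troponin T, was at 0 and 1.27 CPM against 17.3 and 15.5 CPM (edgeR adjusted p = 0.305). The female groups did not overlap for these 3 genes. In the male pools, which share the estimate of spread, the same genes differed widely between replicates, with Ttn at 626 and 78.1 CPM in male Myf5High and 72.7 and 432 CPM in male Myf5Low. Des (desmin), the intermediate filament protein already present in muscle stem cells, was the most abundant member and had the opposite sign, at 2172 and 1814 CPM in Myf5High and 1365 and 863 CPM in Myf5Low (edgeR adjusted p = 0.327).

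Chrna4, Adora1 and Dpp6, which encode receptors or a channel subunit, were also called lower. Chrna4, a neuronal-type nicotinic acetylcholine receptor subunit, had 0 counts in both Myf5High libraries and was at 14 and 23.5 CPM in Myf5Low, at least 21.6-fold lower with the same floor (edgeR adjusted p = 0.0167). Adora1, an adenosine receptor, had 1 count in the Myf5High libraries together and was at 13.2 and 19.01 CPM in Myf5Low, a ratio of 115 with a 95% counting interval of 20.2 to 4564 (edgeR adjusted p = 0.00177). Dpp6, an accessory subunit of potassium channels, was at 5.49 and 6.86 CPM against 41.7 and 44.1 CPM (log2 -2.79 ± 0.47, SE; edgeR adjusted p = 0.00813). Chrna4 was called in 16 of 20 settings, Adora1 in 20 of 21 and Dpp6 in 14 of 21, lost only without a female library. Each had Myf5High libraries well below both Myf5Low libraries, and Adora1 and Dpp6 overlap Mybph and Speer4b, so their counts could include reads of these genes, though Mybph itself was at 0.274 CPM at most. Among 12 tested genes of the acetylcholine receptor and neuromuscular synapse list, only Chrna4 was called in this fit. The list median was -1.08, and -0.43 with members at 0 in a fraction set to their floor-based bound. Chrna1, the muscle-type receptor subunit, was at 28.4 and 29.7 CPM in Myf5High and 66.4 and 85.7 CPM in Myf5Low and was not called (log2 -1.38 ± 0.34, SE; edgeR adjusted p = 0.121). Dok7, an activator of the synaptic kinase Musk, was at 1.29 and 0 CPM against 12.6 and 22.3 CPM, also not called (edgeR adjusted p = 0.118).

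The remaining genes called lower have different roles. Fndc5, the membrane precursor of the secreted peptide irisin, was at 0.646 and 2.29 CPM in Myf5High and 32.1 and 25.1 CPM in Myf5Low (log2 -4.23 ± 0.63, SE; edgeR adjusted p = 0.00244). Casz1, a zinc finger transcription factor, was at 3.23 and 4.83 CPM against 29.1 and 46.7 CPM (log2 -3.22 ± 0.54, SE; edgeR adjusted p = 0.00813). Tmem88b was at 14.5 and 13.0 CPM against 51.01 and 67.8 CPM (log2 -2.10 ± 0.42, SE; edgeR adjusted p = 0.0363). It was called in 12 of the 21 settings, and not by glmTreat or in any fit without a female library. In all 3 the groups were apart by more than the spread of either. Acta2, smooth muscle actin, was at 67.2 and 68.4 CPM in Myf5High and 153 and 334 CPM in Myf5Low (log2 -1.74 ± 0.33, SE; edgeR adjusted p = 0.0255). It was called in 15 of the 21 settings, and not by glmTreat. Acta2 is a marker of vessel-wall cells as well as a gene of differentiating myoblasts, and the other markers of vessel-wall cells are given below.

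**Figure D2:**
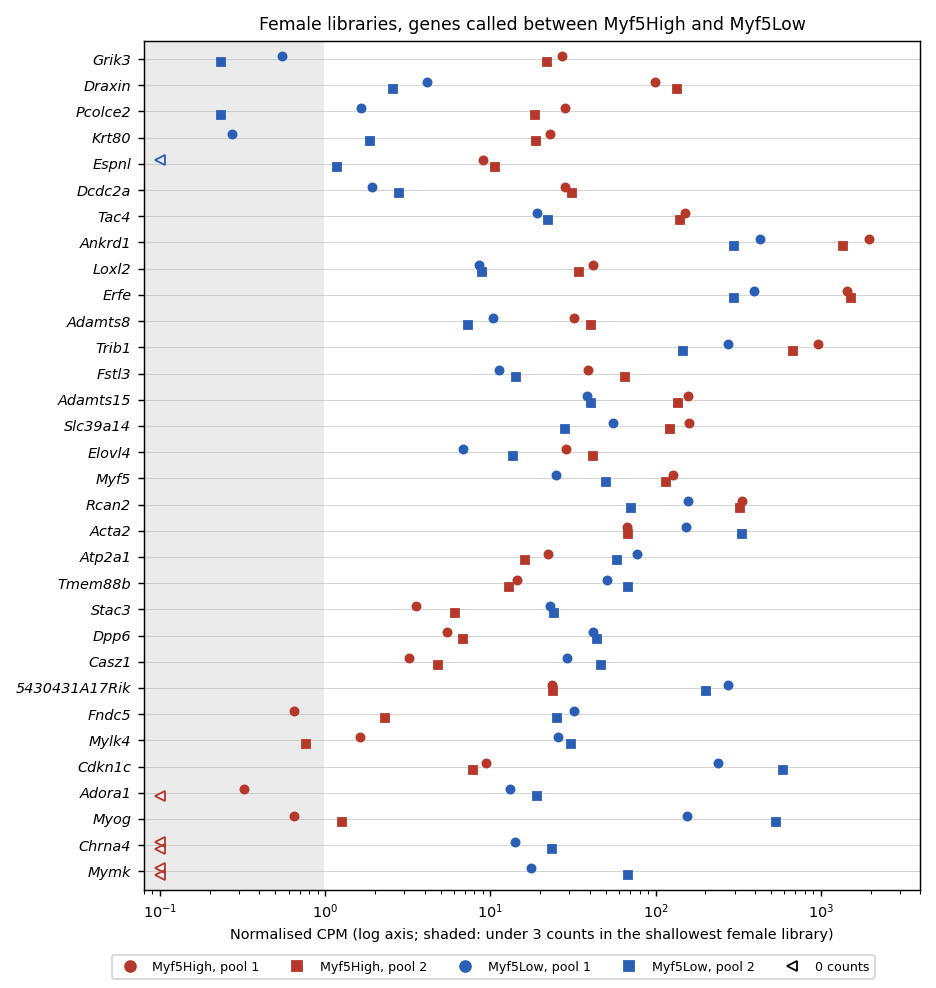
Normalised CPM (log axis) of 32 of the 33 called genes in each of the 4 female libraries, ordered by fitted log2 fold change; circles are pool 1, squares pool 2, red Myf5High and blue Myf5Low, and open triangles mark 0 counts. Red and blue symbols do not overlap in any row, and in the shaded range a level is under 3 counts in the shallowest female library.

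The promoters of the genes that moved can be set beside these values, since Myog itself acts through E-boxes. The 250 bases before the RefSeq start site (GRCm38.p6) are shown for Myog and Mylk4, which fell, and for Draxin, which rose, each on its gene's strand with E-boxes (CANNTG, a motif whose pattern reads the same on both strands) in capitals. Myog lies at chr1:134289754-134290003 on the + strand, Mylk4 at chr13:32783965-32784214 on the - strand and Draxin at chr4:148130699-148130948 on the - strand.

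Myog: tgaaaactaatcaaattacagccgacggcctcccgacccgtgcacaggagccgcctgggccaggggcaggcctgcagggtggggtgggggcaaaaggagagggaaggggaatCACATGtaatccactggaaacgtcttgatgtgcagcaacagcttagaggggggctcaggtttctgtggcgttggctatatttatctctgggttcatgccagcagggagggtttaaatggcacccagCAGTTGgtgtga

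Mylk4: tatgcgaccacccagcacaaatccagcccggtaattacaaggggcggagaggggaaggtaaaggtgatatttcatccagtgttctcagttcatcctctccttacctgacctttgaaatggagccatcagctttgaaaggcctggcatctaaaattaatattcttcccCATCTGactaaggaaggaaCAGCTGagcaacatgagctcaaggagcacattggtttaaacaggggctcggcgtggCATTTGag

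Draxin: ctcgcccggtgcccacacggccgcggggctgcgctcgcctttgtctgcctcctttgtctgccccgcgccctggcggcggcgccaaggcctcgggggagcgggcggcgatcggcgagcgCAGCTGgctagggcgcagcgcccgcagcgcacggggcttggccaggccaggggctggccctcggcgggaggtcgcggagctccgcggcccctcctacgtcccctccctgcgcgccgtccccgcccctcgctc

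The E-boxes of Myog begin 138 and 12 bases before the start, those of Mylk4 83, 64 and 8 bases before it, and that of Draxin 132 bases before it. A window was matched for 11 of the genes called lower and 12 of those called higher. Of these, 8 of 11 (72.7%) and 10 of 12 (83.3%) held a CANNTG. The share was 60.9% among 9197 tested genes with a window and 69.3% among all 27025 genes with one. The narrower motif CAGCTG, which is contained in CANNTG, occurred in 3 of 11 (27.3%) and in 3 of 12 (25.0%), against 14.5% of the tested genes with a window. Differences between these shares were not tested, and a match is a description of the letters only. Mymk and Cdkn1c were among the called genes without a matched window.

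Among the genes higher in Myf5High, Draxin and Grik3 rose most in relation to a near-absent level in Myf5Low. Draxin is a secreted axon guidance protein that binds the netrin receptor Dcc (chromosome 4, 148098437 to 148130698). It was at 99.4 and 134.7 normalised CPM in Myf5High and at 4.11 and 2.58 CPM in Myf5Low. The fractions were separated 24.2-fold in pool 1 and 52.2-fold in pool 2 (log2 5.12 ± 0.44, SE; edgeR adjusted p = 2.72e-06). Draxin overlaps Mad2l2 on the other strand, and the strand setting of the counting is not given in the sources used here. Grik3, a kainate-type glutamate receptor subunit, was at 27.1 and 22.1 CPM in Myf5High and at 0.549 and 0.235 CPM in Myf5Low. With 171 counts against 3 the ratio was 64.1, with a 95% counting interval of 21.6 to 314 (edgeR adjusted p = 6.36e-05).

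The list of 46 axon guidance genes, of which 32 were tested, had Draxin called and 0 called lower, with a median log2 difference of -0.12. Dcc had 0 counts in both Myf5High libraries and at most 0.274 CPM in Myf5Low. Neo1, a related receptor, was at 71.7 and 71.2 CPM in Myf5High and 38.1 and 54.9 CPM in Myf5Low, not called (edgeR adjusted p = 0.831). The most abundant members that were not called, Sema6a and Plxnd1, had log2 differences of -0.12 and 0.21. Draxin was therefore the called member of a list in which 14 differences lay above 0 and 18 below.

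Ankrd1, Erfe and Trib1 had the highest levels in Myf5High among the genes called higher. Ankrd1, an ankyrin repeat protein of the nucleus and sarcomere that mechanical signals induce, was at 1950 and 1355 CPM in Myf5High and at 428 and 296 CPM in Myf5Low (log2 2.19 ± 0.28, SE; edgeR adjusted p = 0.000593). Erfe (erythroferrone), a secreted hormone that acts on iron metabolism, was at 1435 and 1523 CPM against 391 and 299 CPM (log2 2.11 ± 0.32, SE; edgeR adjusted p = 0.00291). Trib1, a pseudokinase that directs proteins to degradation, was at 955 and 677 CPM against 273 and 147 CPM (log2 2.00 ± 0.28, SE; edgeR adjusted p = 0.00169). In Ankrd1 and Trib1 the pool 1 library was the higher of the pair in both fractions, and the fold within pools was alike for Ankrd1, at 4.56 and 4.57. Erfe overlaps Ilkap on the other strand. Tac4, the precursor of a tachykinin peptide, was at 151 and 141 CPM in Myf5High and at 19.2 and 22.3 CPM in Myf5Low. Its replicates were close in both fractions (log2 2.82 ± 0.39, SE; edgeR adjusted p = 0.0014).

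Pcolce2, Adamts15, Adamts8, Loxl2 and Fstl3, which encode secreted proteins, were called higher and belong to 0 of the lists. Pcolce2, an enhancer of procollagen processing, was at 28.4 and 18.6 CPM in Myf5High and at 1.65 and 0.235 CPM in Myf5Low (log2 4.79 ± 0.78, SE; edgeR adjusted p = 0.00638). Over the settings the difference for Pcolce2 ran from 3.80 to 6.46, and with pools paired it was not called without the Myf5High or the Myf5Low library of pool 2. Adamts15, a metalloprotease that cleaves matrix proteoglycans, was at 156 and 137 CPM against 38.7 and 40.4 CPM (log2 1.89 ± 0.31, SE; edgeR adjusted p = 0.00638). Its relative Adamts8 was at 32.0 and 40.4 CPM against 10.4 and 7.28 CPM (log2 2.04 ± 0.43, SE; edgeR adjusted p = 0.0496). Replicates of Adamts15 in Myf5Low were nearly equal, and all 3 genes had groups apart from each other. Loxl2, a lysyl oxidase that cross-links collagen, was at 41.6 and 34.6 CPM against 8.50 and 8.92 CPM (log2 2.12 ± 0.44, SE; edgeR adjusted p = 0.0496). Fstl3, a secreted antagonist of activin and myostatin, was at 39.1 and 65.6 CPM against 11.2 and 14.3 CPM (log2 2.00 ± 0.40, SE; edgeR adjusted p = 0.0363), and it overlaps Prss57. For Loxl2 and Fstl3 too, both Myf5High libraries lay above both Myf5Low libraries. Adamts8 and Loxl2 were not called with RLE scaling, with a filter at a mean of 50 counts or without any 1 of the female libraries, nor was Adamts8 with Gm42418 left out, and they were called in 9 and 10 of the 21 settings. Fstl3, called in 12, was likewise lost without any 1 of the female libraries, and Adamts15, called in 14, was lost in 7 of the 8 fits without a female library.

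The remaining genes called higher have different roles. Dcdc2a, a microtubule-binding doublecortin family protein, was at 28.1 and 31.0 CPM in Myf5High and at 1.92 and 2.82 CPM in Myf5Low (log2 3.63 ± 0.60, SE; edgeR adjusted p = 0.00644). Krt80, a keratin, was at 22.9 and 18.8 CPM against 0.274 and 1.88 CPM (log2 4.28 ± 0.88, SE; edgeR adjusted p = 0.0449). Espnl, an espin-like actin-binding protein, was at 9.04 and 10.7 CPM against 0 and 1.17 CPM (log2 4.06 ± 0.77, SE; edgeR adjusted p = 0.0263). These 3 genes were detected at 9 CPM or more in each Myf5High library and near the floor in Myf5Low. The fitted difference ran from 3.04 to 8.23 for Espnl and from 3.28 to 6.23 for Krt80 over the settings, and neither was called without the Myf5High or the Myf5Low library of pool 1. Slc39a14, a zinc and iron importer, was at 159 and 123 CPM against 54.8 and 28.4 CPM (log2 1.82 ± 0.34, SE; edgeR adjusted p = 0.0255). It was called in 13 of the 21 settings, and not by glmTreat or in most fits without a female library. Rcan2, a regulator of the phosphatase calcineurin, was at 332 and 326 CPM against 157 and 70.9 CPM (log2 1.64 ± 0.31, SE; edgeR adjusted p = 0.0264, and 0.0636 without the pairing). Elovl4, an elongase of very long-chain fatty acids, was at 28.7 and 41.9 CPM against 6.86 and 13.6 CPM (log2 1.82 ± 0.37, SE; edgeR adjusted p = 0.0409, and 0.0636 without the pairing). Elovl4 was called in 10 of the 21 settings, and not by glmTreat or in any fit without a female library. Rcan2, called in 14, was also not called by glmTreat. Myf5, Rcan2 and Elovl4 were among the 4 called genes that were not called when pools were not paired, in a fit that called 39 genes, 29 of them shared.

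Lists of stem cell and signalling genes showed few calls beside these. They are read against the 0.281% of all genes that were called and the median of 0.002. Over 19 lists, 299 of 351 distinct genes were tested and 8 were called, 2.68% of those tested, and several lists were built around genes already known to differ here. The other 25 called genes were in 0 of the lists.

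Quiescence and niche genes, which mark or maintain resting stem cells, had 31 members tested, with 0 called higher and Cdkn1c called lower. The median log2 difference was 0.21, with 20 members above 0 and 13 whose Myf5High libraries both exceeded both Myf5Low libraries, while in 6 both lay below, where 19.6% and 19.5% of all genes did so. Col5a3, a collagen V chain, was at 378 and 380.3 CPM in Myf5High and at 164 and 143.6 CPM in Myf5Low, with nearly equal replicates (log2 1.30 ± 0.28, SE; edgeR adjusted p = 0.0575). Chrdl2, a secreted antagonist of BMP ligands, was at 624 and 567 CPM against 196 and 297 CPM (log2 1.30 ± 0.31, SE; edgeR adjusted p = 0.117). Calcr, the calcitonin receptor of resting stem cells, was at 88.8 and 93.0 CPM against 52.9 and 44.4 CPM (log2 0.91 ± 0.32, SE; edgeR adjusted p = 0.437). These 3 had groups that did not overlap and none was called in this fit. Without the pairing of pools Col5a3 was called (edgeR adjusted p = 0.0235), and over the 21 settings Col5a3 was called in 10 and Chrdl2 in 8. Itga7, an integrin used to purify muscle stem cells, had lower values in Myf5High, at 98.1 and 105.2 CPM against 169.5 and 174.4 CPM (edgeR adjusted p = 0.523).

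The Notch pathway, which keeps muscle stem cells undifferentiated, had 21 members tested and 0 called, with a median of -0.19. The ligand Jag1 was at 89.4 and 78.3 CPM in Myf5High and 21.4 and 52.3 CPM in Myf5Low, not called (log2 1.30 ± 0.37, SE; edgeR adjusted p = 0.222). Its target Heyl had overlapping groups, at 185 and 183 CPM against 121 and 210.0 CPM. The imprinted growth genes had 16 members tested, with Cdkn1c called lower, 0 called higher and a median of -0.18. H19, a maternally expressed lncRNA, was at 173 and 185.3 CPM in Myf5High and 96.8 and 88.0 CPM in Myf5Low, the direction opposite to Cdkn1c, and was not called (log2 0.96 ± 0.28, SE; edgeR adjusted p = 0.257). The IGF axis had 14 members tested, 0 called and a median of -0.10, with 0.06 in pool 1 and -0.46 in pool 2 as log2(CPM + 1).

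Immediate early and heat shock genes, which respond within minutes to stimulation and to tissue dissociation, had 30 members tested and 0 called. Of these, 27 had a difference above 0, 14 had groups that did not overlap with Myf5High higher and 0 with Myf5High lower (19.6% and 19.5% of all genes), and the median was 0.51. The summed level of the list was 50619.8 and 38827 CPM in Myf5High and 39902 and 27639 CPM in Myf5Low. The sums of the fractions overlapped across pools, and pool 1 was higher within each fraction. Within each pool the Myf5High library had the higher sum. Ier3 was at 769 and 692 CPM in Myf5High and 322 and 288 CPM in Myf5Low (log2 1.26 ± 0.27, SE; edgeR adjusted p = 0.0575). Egr1, the most abundant member, was at 9406 and 8038 CPM against 7796 and 5209 CPM (log2 0.45 ± 0.33, SE; edgeR adjusted p = 0.951). Ankrd1 and Trib1, called higher, are not in this list, and the part of this pattern in their differences was not tested.

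**Figure D3:**
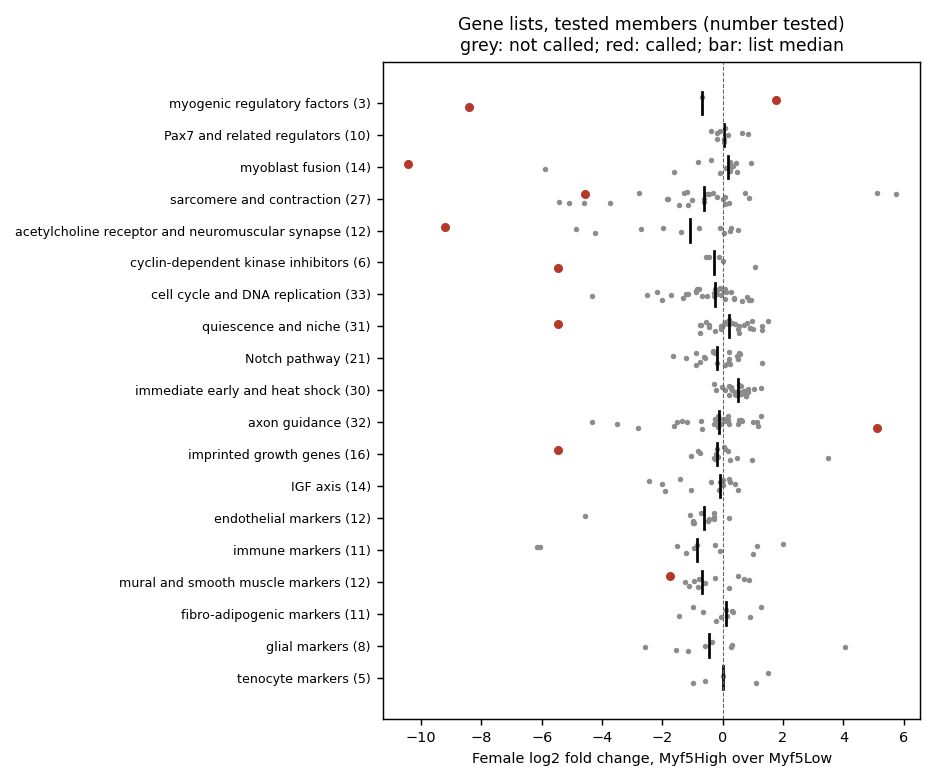
Fitted log2 fold change of Myf5High over Myf5Low in female pools for the tested members of 19 gene lists; each point is a gene, red points are called, black bars are list medians and the number tested is in brackets. Most lists hold at most 1 called member, the myogenic regulatory factors hold Myf5 and Myog, and the immediate early and heat shock list lies mostly above 0 with a median of 0.51.

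Markers of other cell types that the gate could hold were also detected. The 12 endothelial markers had 0 calls, 11 differences below 0 and a median of -0.61 (-0.47 with members at 0 in a fraction set to their bound). Their summed level was 382 and 327 CPM in Myf5High and 486 and 632 CPM in Myf5Low, and the transcription factor Erg was at 0 in both Myf5High libraries and at 1.92 and 0 CPM in Myf5Low. Egfl7 was at 89.8 and 79.8 CPM in Myf5High and 167.8 and 169.2 CPM in Myf5Low (edgeR adjusted p = 0.222). The sum and Egfl7 were higher in both Myf5Low libraries than in either Myf5High library, with pool 2 the highest in the sum. Of 12 mural and smooth muscle markers, Acta2 was called lower and the median was -0.69. Leaving aside Notch3 and Des, which muscle stem cells also express, 8 of 10 markers had a difference below 0, and their sum was 241 and 277 CPM in Myf5High and 456 and 816 CPM in Myf5Low. Myh11, a smooth muscle myosin, was at 18.1 and 18.6 CPM against 32.6 and 58.2 CPM (edgeR adjusted p = 0.305). Without Acta2 as well, 7 of 9 markers had a difference below 0, with 0 called, and their sum was 173 and 208 CPM in Myf5High and 303 and 481 CPM in Myf5Low. Cspg4 and Cnn1 had differences above 0, and the part of vessel-wall cells in the difference of Acta2 was not tested.

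Immune markers had 11 of 16 members tested, 0 called and a median of -0.84. Their sum was 228 and 34.3 CPM in Myf5High and 152 and 102 CPM in Myf5Low. S100a8, a neutrophil protein, was at 105.6 and 66.4 CPM in the Myf5High and Myf5Low libraries of pool 1 and at 1.53 and 0 CPM in those of pool 2, and S100a9 at 67.5 and 22.2 CPM in pool 1 and 1.27 and 0 CPM in pool 2. Both genes were high in both libraries of pool 1 and near 0 in those of pool 2, and within each pool the Myf5High library had the higher value. Without them the immune sum was 54.9 and 31.5 CPM in Myf5High and 63.1 and 102 CPM in Myf5Low, and Cd79a was at 0 in all 4 libraries. Fibro-adipogenic markers (11 tested, median 0.11), glial markers (8 tested, median -0.47) and tenocyte markers (5 tested, median 0.01) had 0 calls. Within pools, on log2(CPM + 1), the glial median was 0.22 in pool 1 and -0.96 in pool 2 and the tenocyte median 1.20 and -0.74, so the pools had opposite signs. The fibro-adipogenic sum was 1336 and 1205 CPM in Myf5High and 925 and 1047 CPM in Myf5Low. Its largest parts were Gsn, Dpt and Col3a1. Gsn was at 559 and 514 CPM against 420 and 459 CPM, and Dpt at 354 and 328 CPM against 161 and 209 CPM. Over the tested members 6 differences lay above 0 and 5 below, and Pdgfra was at 4.32 CPM at most. The part of fibro-adipogenic cells in this sum was not tested.

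The male pools gave a second measurement of the same contrast in other mice. In males 26 genes were called (0.222% of 11730), 19 higher (0.162%) and 7 lower (0.0597%), and 14 were called in both sexes. The fitted male difference had the same sign for each of the 33 genes called in females, the genes not called in males included. For 29 of them the absolute log2 fold change was larger in females, an order that is no test because the genes were chosen on their female change. The test of the difference between the female and the male effect, an interaction term in edgeR, called 0 genes, with 425 at an unadjusted p under 0.05. DESeq2 called 1 gene for that difference. Of the 19 lists, 5 had a median of opposite sign in males, a difference that was not tested. Among them were sarcomere and contraction (-0.61 in females and 0.18 in males), fusion (0.18 and -0.11) and imprinted growth genes (-0.18 and 0.10). The others were the IGF axis (-0.10 and 0.11) and Pax7 with related factors (0.04 and -0.07). Within the female pools, as log2(CPM + 1), the fusion medians of -0.30 and -0.38 had the sign of the male median. The IGF axis medians, 0.06 in pool 1 and -0.46 in pool 2, differed in sign from each other. The remaining lists of opposite sign had the sign of their female median in both female pools.

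Myog fell in both sexes, with 0 and 0.657 CPM in male Myf5High and 124.5 and 93.4 CPM in male Myf5Low (log2 -8.45 in males, edgeR adjusted p = 3.05e-07). Mymk had 0 counts in both Myf5High libraries in males as in females, and was at 11.9 and 4.29 CPM in male Myf5Low. Dcdc2a rose by log2 3.93 in males and 3.63 in females. The level of Draxin in male Myf5High, 104.5 and 173.7 CPM, overlapped that in female Myf5High, whereas in male Myf5Low it was at 38.7 and 32.2 CPM, above both female Myf5Low libraries. Its log2 fold change was 1.93 in males, a female minus male difference of 3.19 ± 0.55 (SE) with an unadjusted p of 1.58e-05 and an edgeR adjusted p of 0.185. Grik3 likewise was at 12.1 and 12.9 CPM in male Myf5Low, against under 1 CPM in females (interaction log2 3.76 ± 0.80, SE; edgeR adjusted p = 0.849). Cdkn1c differed by -2.22 ± 0.53 (SE) on the same scale (edgeR adjusted p = 0.849), and Pcolce2, at 14.6 and 11.5 CPM in male Myf5High and 5.81 and 9.06 CPM in male Myf5Low, by 3.95 (edgeR adjusted p = 0.888). The Myf5 difference itself was smaller in males, at 73.6 and 39.4 CPM against 41.8 and 28.6 CPM with overlapping groups, log2 0.64 (edgeR adjusted p = 0.934), and the sexes differed by 1.13 ± 0.50 (SE; edgeR adjusted p = 1). None of these differences between the sexes was called in this fit.

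**Figure D4:**
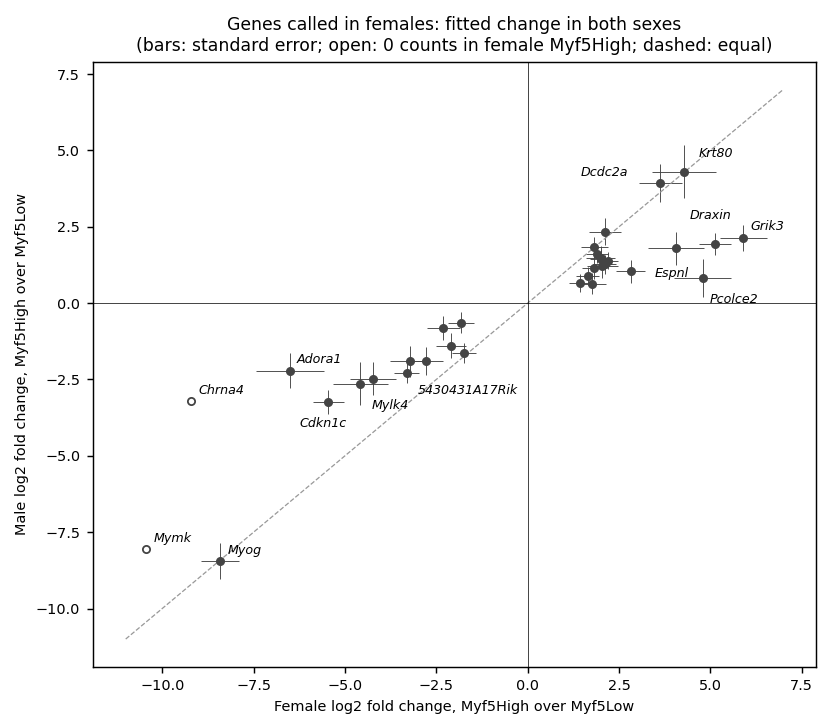
Fitted log2 fold change of Myf5High over Myf5Low in males against that in females for the 33 genes called in females; bars are standard errors, open symbols are Mymk and Chrna4 (0 counts in female Myf5High), and the dashed line marks equal change. All 33 genes lie in the quadrants of equal sign, with Myog on the line and Draxin, Grik3 and Pcolce2 nearer to 0 in males.

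The count of 33 rested on few libraries. With pools paired, both fits without a library of pool 2 take the female difference from pool 1 alone. Leaving out the Myf5High library of pool 2 left 17 calls and leaving out the Myf5Low library of pool 2 left 15, of which 12 and 10 were among the 33. Leaving out any male library gave 246 to 258 calls, which included the 33, in fits with 1 residual degree of freedom. Myog, Cdkn1c, Draxin, 5430431A17Rik and Grik3 were called in each of the 21 settings run. Leaving out 1 female library moved the fitted fold of 11 of the 33 genes by more than 1.5 times, by up to 4.17 on the log2 scale for Espnl, 2.73 for Adora1, 1.95 for Krt80, 1.67 for Pcolce2, 1.38 for Mymk, 1.34 for Fndc5 and 1.17 for Myog. The other 4 were Cdkn1c, Mylk4, Grik3 and Myf5, at 0.59 to 0.80.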

How the data were processed

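RNA was sequenced as single reads from polyadenylated RNA of sorted cells, per the labels' protocols. For the 8 libraries the authors deposited a table of raw counts, whole numbers for each Ensembl gene without normalisation. HTSeq and the build GRCm38 are named in the submitters' processing notes, while the aligner, the annotation release and the strand setting are not given in the sources used here. Of 27554 genes, 27518 matched GENCODE M21, the source of symbols and coordinates, and 0 columns were left out. Rows that name no gene (41.96% to 42.95% of reads without a feature in the female libraries) were kept out of library sizes.

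Except where DESeq2 is named, fits used edgeR 4.0.16 under R 4.3.3. filterByExpr with the 4 groups (minimum count 10, total 15) kept 11730 genes, which were scaled by TMM over all 8 libraries. With the female libraries alone it kept 10804 genes. glmQLFit was run on all 8 libraries with the pool as a block and a Myf5High effect per sex, leaving 2 residual degrees of freedom per gene, and glmQLFTest was two-sided. The Benjamini-Hochberg adjustment covered all genes tested. Standard errors come from the fold change and its F statistic. Pools were paired from their labels. Deviations of same-numbered female libraries correlated at 0.0282 over 11730 genes, while S100a8 and S100a9 were high in both female pool 1 libraries and near 0 in both of pool 2. Intervals at 95% and the floor of 3 counts cover counting error only. The fit was tested on simulated data.

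The named genes are Myf5, Pax7, Myog, Mymk and Draxin, the 12 largest changes per direction among called genes at a mean of at least 5 CPM, and members of 19 lists. Of the other 9 called genes, 1 is not reported here; the rest, and further members and male values, were added after their values were seen. Members and lists were chosen with earlier results of these data known. Other settings were no block, RLE scaling, no filter, a mean of at least 50 counts, DESeq2 1.42.0, glmTreat at a fold of 1.5, Gm42418 left out, female libraries alone, and each library left out in turn.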

Additional observations from a re-analysis of the deposited data

Results flagged for a closer look

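For 6 listed genes the female and the male difference between Myf5High and Myf5Low had opposite signs in every pool. They are 6 of 85 named genes tested, and 10.9% of all 11730 genes tested had such signs. Values are the female minus male difference in log2 fold change with its standard error. For Pax7 it was 0.34 ± 0.38 (log2 0.18 in females and -0.16 in males). Vcam1, an adhesion molecule of muscle stem cells, gave 0.45 ± 0.38 (0.22 and -0.23). Cxcr4, a chemokine receptor used to purify these cells, gave 1.23 ± 0.44 (0.49 and -0.74). The inhibitors of cyclin-dependent kinases Cdkn1a and Cdkn1b gave -1.14 ± 0.48 (-0.55 and 0.59) and -0.88 ± 0.48 (-0.44 and 0.44). Ccnd1, cyclin D1, gave 1.35 ± 0.38 (0.80 and -0.55). The interaction test in edgeR gave an unadjusted p of 0.00223 for Ccnd1, 0.0112 for Cxcr4 and 0.0285 for Cdkn1a, and an adjusted p of 1 for each of the 6 over 11730 genes. Ccnd1 was at 384 and 581 CPM in female Myf5High and 236 and 310 CPM in female Myf5Low, and at 383 and 312 CPM in male Myf5High and 588 and 435 CPM in male Myf5Low. The groups did not overlap within either sex, in opposite directions.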

How the results depend on the processing

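Of the 33 called genes, 33 kept their direction in all settings run and 5 stayed called in each. Without the replicate block 39 genes were called in females, 20 in males and 0 for the difference between the sexes, and RLE scaling, a mean of at least 50 counts and Gm42418 left out gave 31, 32 and 32 in females. Counts moved by more than 1.5 times with no filter (131 in females, 75 in males, 8 for the difference between the sexes), with DESeq2 (73, 44 and 1) and with glmTreat at a fold of 1.5 (20 in females and 6 in males). Female libraries alone gave 230 calls with the replicate block and 77 without it. Leaving out 1 library gave 8 to 258 calls in females, 37 to 209 in males and 0 to 66 for the difference between the sexes. With the block, leaving out a library leaves 1 residual degree of freedom, and edgeR then used no gene-specific spread. The difference in that sex then rests on its other pool alone. Without a male library the common biological coefficient of variation was 0.3, against 0.359 with all 8, and 246 to 258 genes were called. Without a female library 15 to 31 genes were called with the block and 10, 14, 19 and 8 without it. The lowest counts came without the Myf5Low library of pool 2 (15 with the block, 8 without). Among the uncalled list genes Jun reversed to -0.04 without that library and the block. The Myf5Low library that remained was at 5334 CPM, between the Myf5High libraries at 5559 and 4901 CPM. Plxnd1 reversed to -0.01 and -0.02 without the Myf5High or the Myf5Low library of pool 2, with the block (range -0.02 to 0.42). Both of these fits take the female difference from pool 1, where Plxnd1 was at 252 CPM in Myf5High and 254 CPM in Myf5Low. Over single genes, 182 other values crossed to the uncalled side and 151 to the called side, and 90 of 399 list medians moved. With 2 libraries per fraction at this depth, levels under 1 CPM are at the detection floor.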
